A study of Mus musculus with 6 samples.

Results

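The 10 genes described here supply selenium to the muscle or build and insert selenocysteine: Selenop, Scly, Sephs2, Sephs1, Pstk, Sepsecs, Trnau1ap, Eefsec, Secisbp2 and Secisbp2l. They were chosen by their known role in this pathway, with earlier results of these data known, and found by Ensembl identifier. They are 10 of the 55416 genes in the count table. RNA sequencing was done on tibialis anterior (TA) muscle of aged mice that lack or keep SELENOW, a small selenoprotein abundant in muscle. The WT group held 3 mice and the KO group 3 mice in which CRISPR had removed exon 4 of Selenow. All were on a C57BL/6N background, were aged naturally to 24 months by the labels, and were male as far as the study's methods state. Each library is a separate sample in the labels, so the p-values below measure the spread between these samples.

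Selenocysteine is built on its own tRNA and inserted at a UGA codon, which elsewhere ends translation. Liver-derived selenoprotein P, encoded by Selenop, carries selenium through plasma, and cells take it up through lipoprotein receptors. Inside the cell, selenocysteine lyase recovers the selenium, selenophosphate is made from it, and a dedicated elongation factor delivers the finished tRNA to mRNAs that hold a SECIS element. The question put to these genes was whether their mRNAs differ between WT and SELENOW KO muscle.

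The codon that gives the pathway its work is shown here in 3 mouse mRNAs, with the UGA codon (TGA in DNA) in capitals and 5 codons on each side. The sequences are GENCODE M21 transcripts of GRCm38, 5′ to 3′. The fourth is Sephs1, aligned to Sephs2, where the codon in capitals encodes threonine.
Sephs2, codon 63: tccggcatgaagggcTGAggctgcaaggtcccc
Selenow, codon 13: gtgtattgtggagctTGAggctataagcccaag
Selenop, codon 59: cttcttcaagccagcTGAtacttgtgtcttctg
Sephs1, codon 29: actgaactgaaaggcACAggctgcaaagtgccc
Sephs2 is thus both a maker of selenocysteine precursor and a user of selenocysteine. Among the 10 genes, Selenop and Sephs2 had in-frame TGA codons in these transcripts, 10 in Selenop and 1 in Sephs2, and the other 8 had 0. Of the 10 in Selenop, 7 lie in the last 100 of its 380 codons, which are printed because this crowded end sets Selenop apart from the selenoproteins that need 1 selenocysteine.
Selenop, from codon 281: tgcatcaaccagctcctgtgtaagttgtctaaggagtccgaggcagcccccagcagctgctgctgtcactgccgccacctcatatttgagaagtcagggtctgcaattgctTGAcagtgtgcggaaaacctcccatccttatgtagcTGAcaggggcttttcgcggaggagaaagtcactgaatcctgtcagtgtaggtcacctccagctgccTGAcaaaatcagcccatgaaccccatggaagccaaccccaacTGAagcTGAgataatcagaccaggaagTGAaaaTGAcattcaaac

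The deposited values were raw counts per gene. Values listed for a genotype follow the order of replicates 1, 2 and 3. The WT libraries totalled 25351976, 29111213 and 25398186 counts and the KO libraries 27815342, 27345022 and 27637175. The share that came from the mitochondrial genome was 37.3%, 29.1% and 29.8% in the WT libraries and 40.3%, 38.2% and 35.4% in the KO libraries. The groups overlapped in this share, with WT replicate 1 among the KO values. Values per library below are CPM, the counts of a gene scaled to a common library size. The scaling was TMM, which is computed across genes so that a few abundant ones weigh little. The choice of scale matters for direction: scaled to library totals in place of TMM, a setting chosen after seeing the data, the median of all tested genes moved by -0.25 on the log2 scale. TPM, which scales counts per length to the sum of such values in the library, moved that median by -0.37. Differences between genotypes are therefore given on the TMM scale, where the median of all tested genes was -0.0042. TMM sets the scale so that most genes differ little, so this median lies near 0 by design and cannot show a shift shared by most genes.

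Markers of the labelled tissue were abundant. The 10 skeletal muscle markers, led by Myh4, summed to 86480, 111000 and 88280 CPM in WT and 95460, 111600 and 105000 CPM in KO libraries. Selenow itself, the edited gene, had 268, 245 and 219 CPM in WT and 193, 212 and 210 CPM in KO libraries. The highest KO value lay under the lowest WT value, as it did for 7.87% of all tested genes. The log2 difference was -0.25 (SE 0.14, 95% interval -0.56 to 0.060), with an unadjusted p of 0.105 and an adjusted p of 0.604 in edgeR's quasi-likelihood test. Relative to library totals it was -0.49, beside the shift of -0.25 in the median of all tested genes. The table counts whole genes, so exon 4 itself was not measured.

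None of the 10 genes passed the thresholds the study used for differentially expressed genes (DEGs), an unadjusted p under 0.05 with a fold change over 1.5 or under 0.7, in either edgeR or DESeq2. Across all 15623 tested genes, 5.35% passed with edgeR, 2.21% higher and 3.14% lower in KO, and 4.94% passed with DESeq2. At an unadjusted p under 0.05 alone, the count was 0 of 10 with both tools, against 9.89% of all genes with edgeR and 8.26% with DESeq2. No member had an adjusted p under 0.05 with edgeR or DESeq2, where the share of all genes was 0.0% with edgeR and 45 genes passed with DESeq2. On the TMM scale the WT and KO libraries overlapped for each of the 10 genes, while 15.4% of all tested genes had groups that did not overlap in one direction or the other. With so few members, counts of 0 lie near these background shares and set the 10 genes apart from no others.

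The intervals say how large a difference these libraries leave room for. Of the 10 members, 8 had a 95% interval of the fold change lying wholly between 0.7 and 1.5, as did 36.4% of all tested genes. The exceptions were Eefsec, whose interval reached 1.78, and Secisbp2, whose interval began at 0.697. Log2 differences ran from -0.14 to 0.26 with a median of 0.021, 6 genes higher and 4 lower in KO on the TMM scale. Scaled to library totals, 9 of the 10 were lower with a median of -0.24, close to the shift of all genes on that scale. Adjusted p from edgeR ran from 0.562 for Secisbp2l to 0.995 for Selenop.

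**Figure D1:**
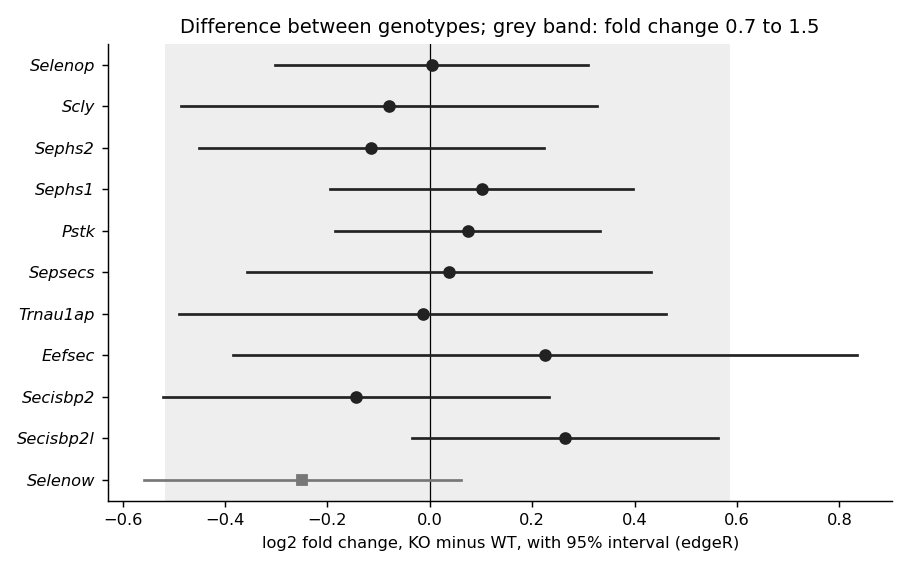
Difference between KO and WT muscle for the 10 genes and Selenow, as the log2 fold change on the TMM scale from edgeR (horizontal axis), with points for the estimate and lines for its 95% interval. Every interval crosses 0, and the intervals of Eefsec, Secisbp2 and Selenow reach past the grey band of fold changes from 0.7 to 1.5.

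Selenium supply begins with Selenop (ENSMUSG00000064373, chromosome 15 from 3298029 to 3309990 on the plus strand of GRCm39, the build in the submitters' processing notes). It had 57.9, 62.5 and 75.9 CPM in WT and 64.5, 69.3 and 63.1 CPM in KO libraries. WT replicate 3 was the highest and WT replicate 1 the lowest of the 6, so the KO libraries fell inside the WT range. The WT mean was 65.4 ± 9.31 CPM and the KO mean 65.6 ± 3.25 CPM (SD, n = 3 libraries each). The log2 difference was 0.0037 (SE 0.14, 95% interval -0.30 to 0.31), with an adjusted p of 0.995 in edgeR. A change in Selenop above 1.24-fold or below 0.811-fold thus lies outside the 95% interval.

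WT replicate 3 also stood apart in markers of cells other than muscle fibers. The 10 macrophage markers, led by Lyz2, summed to 34.1, 22.4 and 80.8 CPM in WT and 33.9, 22.5 and 17.4 CPM in KO libraries. Of these markers, 8 of 10 were lower in KO and 1 passed the DEG thresholds as lower, as did 3.14% of all tested genes. The 10 fibroblast markers, led by Dcn, summed to 196, 116 and 371 CPM in WT and 218, 100.3 and 171 CPM in KO libraries, again with 8 of 10 lower and 0 past the thresholds. In both lists all markers had counts and the highest sum was in WT replicate 3, where Selenop was highest, as were the slow fiber, satellite cell and hepatocyte sums given below. The endothelial sum, given below, was lowest in WT replicate 3. WT replicate 1, with the lowest Selenop, had the third highest fibroblast sum. Its macrophage, slow fiber and hepatocyte sums were above those of each KO library, and its satellite cell sum was the lowest of all. The part of these cells in the Selenop level was not tested. Without WT replicate 3 the log2 difference of Selenop was 0.12. In bulk muscle, fewer cells of a type and less RNA per cell cannot be told apart.

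Hepatocytes are the main source of circulating selenoprotein P, and their markers had few reads. Of 6 hepatocyte markers, 1 (Tf) had enough counts for the test. It passed the DEG thresholds as lower in KO, as did 3.14% of all tested genes. Tf made up 91.2% of sums of 2.64, 1.87 and 3.62 CPM in WT and 1.57, 1.59 and 1.31 CPM in KO libraries. Each KO sum lay below each WT sum, a separation that 7.87% of all tested genes had singly. Alb, the defining hepatocyte gene, had 0 counts in 5 of the 6 libraries and 0.204 CPM in KO replicate 2. The part of hepatocyte RNA in the Selenop level was not tested.

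The counted exons of Selenop share 439 of 2842 bases (15.4%) with Ccdc152, which lies on the opposite strand. Whether reads were counted by strand is not stated, so part of the Selenop count could belong to Ccdc152 or the reverse. Ccdc152 had 19.6, 17.2 and 22.0 CPM in WT and 17.7, 15.4 and 14.6 CPM in KO libraries. The log2 difference of Ccdc152 was -0.30 (SE 0.14) with an adjusted p of 0.505 in edgeR, and its groups overlapped.

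Scly encodes selenocysteine lyase, which frees selenium from selenocysteine for reuse (ENSMUSG00000026307, chromosome 1 from 91226060 to 91248797, plus strand). It had 3.98, 5.04 and 4.45 CPM in WT and 4.95, 3.996 and 3.82 CPM in KO libraries. KO replicate 3 was the lowest and WT replicate 2 the highest, and the groups overlapped. The log2 difference was -0.080 (SE 0.19) with an adjusted p of 0.916 in edgeR. Gm17090 on the opposite strand shares 159 of its 4549 counted bases.

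Sephs2 makes selenophosphate, the selenium donor (ENSMUSG00000049091, chromosome 7 from 126871051 to 126873227, minus strand, in 1 exonic block). It had 20.9, 16.9 and 15.1 CPM in WT and 16.2, 14.1 and 18.5 CPM in KO libraries. WT replicate 1 was the highest and KO replicate 2 the lowest, with the other 4 libraries mixed between them. The log2 difference was -0.11 (SE 0.15, 95% interval -0.45 to 0.22), with an adjusted p of 0.837 in edgeR. Exons of Gm44729 on the opposite strand share 792 of its 2177 bases (36.4%).

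Its paralog Sephs1 lacks the selenocysteine codon, as the aligned sequences above show, and is not known to make selenophosphate from selenide (ENSMUSG00000026662, chromosome 2 from 4886375 to 4915368, plus strand). The proteins share 75.2% of 391 aligned residues. Sephs1 had 10.02, 9.28 and 9.95 CPM in WT and 9.39, 11.5 and 10.5 CPM in KO libraries. KO replicates 2 and 3 were above every WT library, KO replicate 1 was not, and the log2 difference was 0.10 (SE 0.14).

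Within each library the ratio of the paralogs does not depend on the scale. Per length, the Sephs1 to Sephs2 ratio was 0.176, 0.202 and 0.242 in WT and 0.212, 0.299 and 0.209 in KO libraries. Sephs2 was thus more abundant than Sephs1 in each of the 6 libraries, and KO replicate 2 alone lay above the WT range. The KO minus WT difference in log2 ratio was 0.21 with a p of 0.4 in a two-sided exact permutation test over libraries, where 3 against 3 cannot give less than 0.1. It was 0.039 without KO replicate 2, 0.099 without WT replicate 1 and 0.33 without WT replicate 3.

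Next come the enzymes that load the tRNA. Pstk phosphorylates the serine that is first attached to it (ENSMUSG00000063179, chromosome 7 from 130972870 to 130996211, plus strand), and Sepsecs turns the phosphoserine into selenocysteine with selenophosphate (ENSMUSG00000029173, chromosome 5 from 52797429 to 52827050, minus strand). Pstk had 25.9, 23.3 and 26.2 CPM in WT and 25.3, 27.7 and 26.4 CPM in KO libraries. WT replicate 2 was the lowest and KO replicate 2 the highest, and the groups overlapped. Of the counted bases, 4652 of 7914 (58.8%) are shared with Ikzf5 on the opposite strand. Sepsecs had 4.46, 4.51 and 4.91 CPM in WT and 5.12, 5.30 and 3.85 CPM in KO libraries. KO replicates 1 and 2 were above the WT libraries and KO replicate 3 was the lowest of all. Log2 differences were 0.074 (SE 0.12) for Pstk and 0.038 (SE 0.18) for Sepsecs, with adjusted p of 0.870 and 0.960 in edgeR.

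Trnau1ap encodes a protein that associates with the selenocysteine tRNA (ENSMUSG00000028898, chromosome 4 from 132039074 to 132056849, minus strand). It had 3.08, 3.42 and 2.80 CPM in WT and 2.86, 2.57 and 3.78 CPM in KO libraries. Both the highest and the lowest value were KO libraries, and the log2 difference was -0.014 (SE 0.22).

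Eefsec is the elongation factor that brings the loaded tRNA to the ribosome (ENSMUSG00000033216, chromosome 6 from 88234316 to 88423521, minus strand). With 34 to 51 counts per library it was the least covered of the 10 genes, and 308 of its 2801 counted bases (11%) are shared with Gm44264 on the opposite strand. It had 1.62, 1.06 and 1.68 CPM in WT and 1.81, 1.51 and 1.76 CPM in KO libraries. KO replicates 1 and 3 were above every WT library and WT replicate 2 was the lowest. The log2 difference was 0.22 (SE 0.28), and at this depth a fold change of 1.5 lay inside the 95% interval, which ran from 0.766 to 1.78.

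Secisbp2 binds the SECIS element and recruits the elongation factor (ENSMUSG00000035139, chromosome 13 from 51805733 to 51838080, plus strand). It had 7.34, 9.37 and 7.51 CPM in WT and 8.90, 6.24 and 6.81 CPM in KO libraries. KO replicates 2 and 3 were below the WT libraries, KO replicate 1 was second only to WT replicate 2, and the log2 difference was -0.14 (SE 0.17).

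Its paralog Secisbp2l also binds SECIS elements (ENSMUSG00000035093, chromosome 2 from 125578906 to 125624790, minus strand), and the proteins share 37.3% of 820 aligned residues. It had 10.9, 10.2 and 11.7 CPM in WT and 13.5, 14.4 and 11.5 CPM in KO libraries. KO replicates 1 and 2 were above every WT library, while KO replicate 3 was just below WT replicate 3. The WT mean was 10.9 ± 0.740 CPM and the KO mean 13.1 ± 1.47 CPM (SD, n = 3 libraries each). This was the lowest unadjusted p of the 10 genes, 0.0780 with edgeR and 0.136 with DESeq2, at a log2 difference of 0.26 (SE 0.14, 95% interval -0.034 to 0.56). The adjusted p was 0.562 with edgeR, so it did not pass, and relative to library totals its log2 difference was 0.0099.

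**Figure D2:**
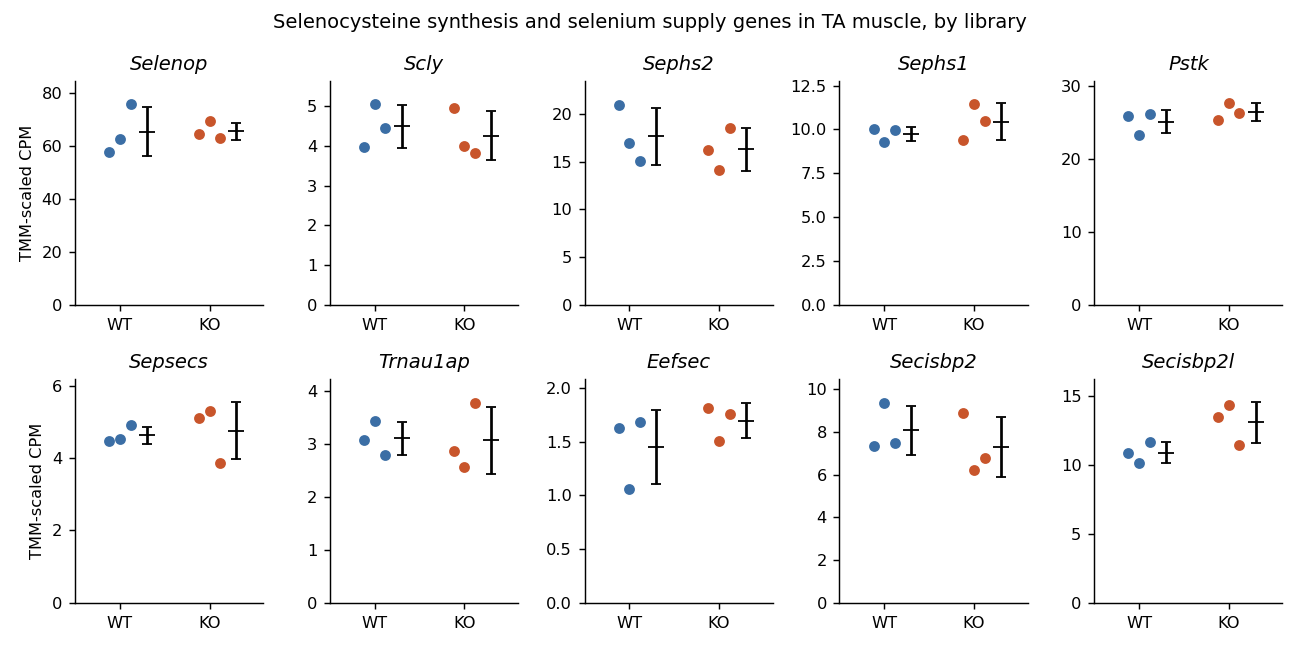
TMM-scaled CPM (vertical axes, each from 0) of the 10 genes in the 3 WT and 3 KO libraries, shown as points, with the mean and SD of each group beside them. In every panel the WT and KO points overlap, least so for Secisbp2l, where KO replicates 1 and 2 lie above the WT points.

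The opposite signs of Secisbp2 and Secisbp2l were read as a ratio within each library. This ratio uses the same counts, so it describes those signs again and is no separate test of them. Per length, the Secisbp2l to Secisbp2 ratio was 0.833, 0.611 and 0.874 in WT and 0.850, 1.29 and 0.949 in KO libraries. Secisbp2 was the more abundant of the paralogs in 5 of the 6 libraries, and in KO replicate 2 Secisbp2l was. KO replicate 1 lay within the WT range and KO replicates 2 and 3 above it. The KO minus WT difference in log2 ratio was 0.41 with a p of 0.2 in a two-sided exact permutation test over libraries. It was 0.23 without KO replicate 2 and 0.25 without WT replicate 2.

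**Figure D3:**
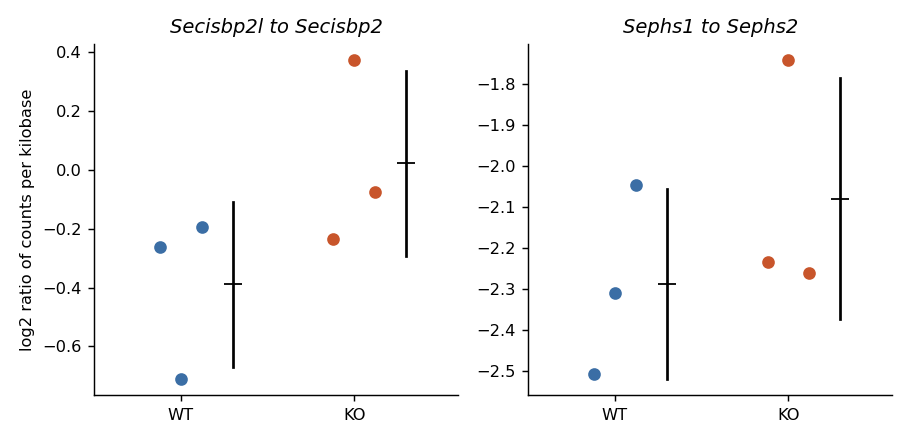
Log2 ratio of counts per kilobase (vertical axes) of Secisbp2l to Secisbp2 and of Sephs1 to Sephs2 in each WT and KO library, shown as points, with the mean and SD of the log2 ratio beside them. In both panels the groups overlap and the highest point is KO replicate 2.

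Compared per length as TPM, the 10 genes spread widely in level within the muscle. Selenop was the most abundant, with a mean of 23.0 TPM over the 6 libraries (range 18.2 to 34.1), above 93.7% of tested genes. It held 54.8% of the summed TPM of the 10 genes. Sephs2 followed at 7.67 TPM, with 8.62, 9.27 and 8.85 TPM in WT and 5.97, 5.42 and 7.91 TPM in KO libraries, and Pstk at 3.22 TPM. The Sephs2 groups, which overlapped on the TMM scale, did not overlap in TPM, where 27.5% of all tested genes had each KO library below each WT library. In TPM all 10 genes were lower in KO with a median log2 difference of -0.35, next to -0.37 in all tested genes. The ranges of these 3 genes overlapped neither each other nor the next gene. On exonic bases that no other gene shares, a length chosen after seeing the data, their means would be 27.2, 12.1 and 7.80 TPM if no read came from the shared part. The opposite case, in which reads of Ikzf5 are counted in Pstk and lower its place, was not tested.

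The remaining 7 genes lay close to or below 1.52 TPM, the median of all tested genes. Sephs1 and Secisbp2 had 1.68 and 1.66 TPM, followed by Secisbp2l at 1.42, Trnau1ap at 1.13 and Scly at 0.957 TPM. Sepsecs at 0.663 and Eefsec at 0.548 TPM came last, 41.9-fold below Selenop in the case of Eefsec. From Sephs1 down, each gene's range over the 6 libraries overlapped that of the next. Within libraries the order was firmer for Scly, which was above Sepsecs in 6 of 6, than for Sephs1, which was above Secisbp2 in 4 of 6.

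**Figure D4:**
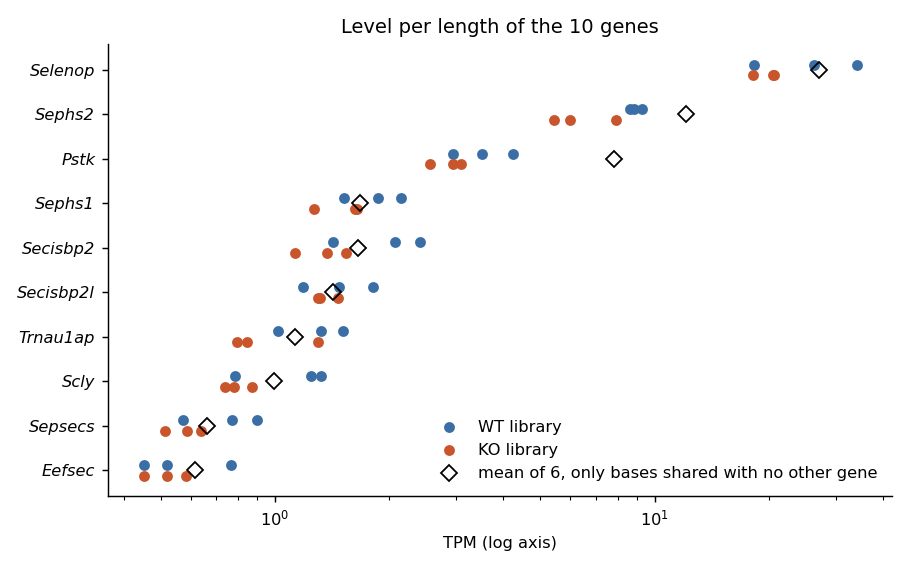
TPM (log axis) of the 10 genes in each WT and KO library, with open diamonds for the mean of 6 libraries if all reads came from bases shared with no other gene. As counted, Selenop, Sephs2 and Pstk stand above the other 7, and KO points lie lower on this scale, as does the median of all tested genes (-0.37 on the log2 scale).

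The mRNAs this machinery reads were weighed by their selenocysteine codons, as TPM times the number of in-frame TGA codons summed over 24 selenoprotein genes. Selenop supplied 4.30% of the TPM of these genes but, with 10 codons per mRNA, 25.9%, 27.7% and 34.8% of the codons in WT and 32.8%, 33.3% and 30.6% in KO libraries. WT replicate 3 was highest, the KO libraries lay within the WT range, and the two-sided exact permutation p was 0.4. Selenow was ahead of it with 42.4% ± 3.73 of the codons in WT libraries and 38.9% ± 0.785 in KO libraries (SD, n = 3). Together they held most of the codons in each library. Sephs2 held 1.04% ± 0.166 in WT libraries and 1.04% ± 0.147 in KO libraries (SD, n = 3). These shares describe mRNA and not the selenocysteine that is inserted. They take each Selenow count in KO libraries as an mRNA that keeps the codon, which was not tested.

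Summed over the 24 genes, TPM times codons was 706, 946 and 979 in WT and 554, 614 and 674 in KO libraries. Each KO sum was below each WT sum, a log2 difference of -0.50 with a two-sided exact permutation p of 0.1, the smallest possible. With mitochondrially encoded genes left out of the TPM total it was -0.33 with the same p. Relative to the median gene on the TPM scale the difference was -0.13. On TMM-scaled CPM per kilobase, an alternative chosen after seeing the data, the sums were 787, 793 and 766 in WT and 691, 731 and 726 in KO, a log2 difference of -0.13 with the same p. Most of the TPM difference was thus shared with the median gene. Without Selenow the TPM difference was -0.42 with an exact permutation p of 0.2, or -0.045 relative to the median gene. On TMM-scaled CPM per kilobase without Selenow it was -0.041 with an exact permutation p of 0.5. Most of the difference beyond the general shift thus lay in Selenow, the edited gene. Selenow held a large share of the codons and had lower values in KO libraries, so leaving it out was bound to shrink the difference.

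**Figure D5:**
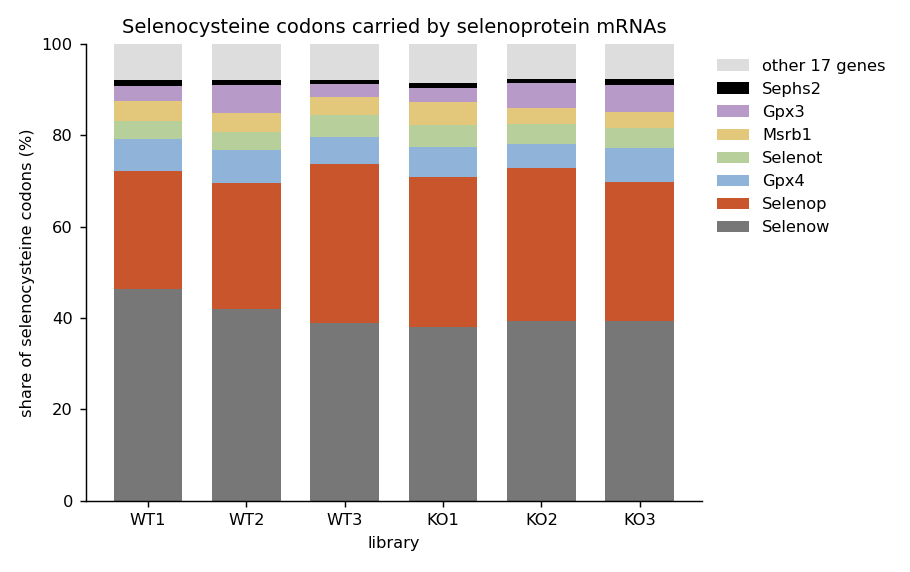
Share of selenocysteine codons (percent of TPM times in-frame TGA codons) held by 7 named selenoprotein genes and by the rest together in the 3 WT and 3 KO libraries, as stacked bars. Selenow and Selenop fill most of each bar, with Selenop between 25.9% and 34.8%.

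Around the 10 genes, 28 others were listed for roles in selenium uptake, reduction, delivery or excretion, tRNA maturation, SECIS binding or mRNA decay, and 23 had enough counts to be tested. None passed the DEG thresholds with edgeR or DESeq2, which 5.35% and 4.94% of all tested genes did, and the median log2 difference was -0.061 on the TMM scale. On that scale 7 were higher and 16 lower in KO, and relative to library totals 4 were higher and 19 lower. Relative to library totals, Rpl30, Eif4a3 and Trit1 passed as lower, on a scale where 11.5% of all tested genes passed, 11% as lower. These were also the 3 of 23 genes with an unadjusted p under 0.05 in edgeR, named here after their values were seen, beside 9.89% of all tested genes. With DESeq2 the number was 1 and no adjusted p was under 0.05. Leaving out KO replicate 1 brought Cth (0.83) and Selenbp1 (0.65) over the DEG thresholds upward, and without WT replicate 2 Inmt (1.04) passed likewise (log2 differences in parentheses). In these fits 1072 and 993 of all genes passed, against 836 with all 6 libraries. With all 6, Cth, Selenbp1 and Inmt had log2 differences of 0.50, 0.43 and 0.54, and the groups of each overlapped.

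Rpl30 is a ribosomal protein that also binds SECIS elements. It had 50.4, 41.5 and 36.1 CPM in WT and 25.9, 32.7 and 32.8 CPM in KO libraries. Each KO library lay below each WT library, as for 3 of the 23 tested genes of this list and 7.87% of all tested genes. The log2 difference of Rpl30 was -0.49 (SE 0.15) with an adjusted p of 0.340 in edgeR. Its fold change of 0.714 missed the threshold of 0.7, and Rpl30 passed with log2 differences of -0.54, -0.54 and -0.60 when KO replicate 2, KO replicate 3 or WT replicate 3 was left out, where 910, 833 and 944 of all genes passed. Eif4a3, an RNA helicase that can bind SECIS elements, and Trit1, which modifies tRNAs including that of selenocysteine, had log2 differences of -0.37 (SE 0.15) and -0.39 (SE 0.18). Their adjusted p were 0.462 and 0.504 in edgeR.

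Sars1, which attaches serine to the selenocysteine tRNA before Pstk acts, had 60.0, 54.8 and 48.3 CPM in WT and 52.9, 42.9 and 48.0 CPM in KO libraries. The groups overlapped, and the log2 difference was -0.18 (SE 0.14) with an adjusted p of 0.698 in edgeR. Lrp8, a receptor for selenoprotein P, was too sparse to test, with 7, 7 and 8 counts in WT and 6, 0 and 2 in KO libraries. The 0 in KO replicate 2 allows up to 0.122 CPM, and a floor of this kind covers counting error only.

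Of the 24 selenoprotein genes, which include Selenop, Sephs2 and, from the list above, Txnrd1, 20 were tested and none passed the DEG thresholds with edgeR or DESeq2, beside the same 5.35% and 4.94% of all tested genes. On the TMM scale 6 were higher and 14 lower in KO, with a median log2 difference of -0.093, and relative to library totals 2 were higher and 18 lower. Of all tested genes, 7712 were higher and 7911 lower on the TMM scale. By mean over the 6 libraries the most abundant were Selenow with 304 TPM, Gpx4 with 49.4 TPM and Gpx3 with 33.3 TPM. Selenow and Gpx4 were above Selenop in 6 of 6 libraries and Gpx3 in 4 of 6. Gpx3 ran from 17.2 to 57.9 TPM and was above Selenot, the next gene with a mean of 32.2 TPM, in 3 of 6. Gpx4, which reduces lipid peroxides, had a log2 difference of -0.18 (SE 0.15), and the secreted peroxidase Gpx3 had one of 0.12 (SE 0.40). The 1 selenoprotein gene with an unadjusted p under 0.05 in edgeR was Selenos, named after its value was seen, at a log2 difference of -0.32 (SE 0.14) and an adjusted p of 0.494. That is 1 of 20 genes, beside 9.89% of all tested genes. DESeq2 gave 0 such genes. Relative to library totals, Selenos passed the DEG thresholds as lower, 1 of 20 genes beside 11% of all tested genes on that scale. Dio2 passed as lower when WT replicate 2 was left out, at a log2 difference of -1.54, where 993 of all genes passed. With no filter on low counts it passed at -1.0, where 1780 of all genes did. The main fit put Dio2 at -1.0 (SE 0.81), and it did not pass. Its counts were 20, 3 and 57 in WT and 11, 12 and 12 in KO libraries.

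Marker sums of other cell types also differed between libraries. The 10 endothelial markers, led by Cdh5, summed to 132, 106 and 78.0 CPM in WT and 122, 138 and 121 CPM in KO libraries, with 10 of 10 higher in KO and 0 past the thresholds. Slow fiber markers, led by Atp2a2, summed to 58.3, 33.5 and 87.7 CPM in WT and 41.1, 30.3 and 33.4 CPM in KO, with 6 of 7 lower and 0 past the thresholds. The 4 erythroid markers, led by Hbb-bs, summed to 204, 291 and 173 CPM in WT and 154, 164 and 141 CPM in KO. Their sum was lower in each KO library than in each WT library, a separation that 7.87% of all tested genes had singly. Of the 4 markers, 2 passed the thresholds as lower, as did 3.14% of all tested genes. Of 7 adipocyte markers 2 were tested, and Plin4 alone made up 98.9% of their sums, with Adipoq at 0.571 CPM or less in each library. These sums were 116, 195 and 125 CPM in WT and 141, 180.4 and 150.4 CPM in KO. Schwann cell sums, led by Mbp, were 6.04, 3.77 and 5.67 CPM in WT and 7.17, 5.79 and 9.69 CPM in KO, and satellite cell sums, led by Myf5, were 0.811, 1.34 and 2.11 against 1.01, 1.55 and 1.53 CPM. Their part in the levels of the 10 genes was not tested.

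Over the 6 libraries, the genes whose log2 CPM most resembled that of Selenop by Pearson r were Msl3 (0.995), Ahnak (0.986), Suz12 (0.979), Tnks2 (0.977) and Csnk1g3 (0.976), of 12804 genes compared. Those most like Secisbp2l were Kmt5c (0.998), Etv1 (0.989), Prpf4b (0.986), Mfsd14a (0.985) and Ccdc82 (0.985). The 6 points share libraries and scaling, and 94 genes reached an r above 0.9 with Selenop and 204 with Secisbp2l. With so few points, many genes resemble any one gene, and these names are given as a description.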

How the data were processed

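RNA sequencing libraries of 3 WT and 3 SELENOW KO TA muscles were analysed. The authors aligned reads with HISAT2 and deposited raw counts per gene with a counted gene length and exon positions (other values, not counts). The submitters' processing notes name GRCm39 while the methods of the study name GRCm38, and 1546 of the 52135 genes found in GENCODE M21 (GRCm38) share its positions, so gene positions are those of the deposited table. The first WT column has no number and was taken as replicate 1. Members and lists were chosen with earlier results of these data known.

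Counts were kept by filterByExpr (15623 genes), scaled by TMM and compared with edgeR 4.0.16 in R 4.3.3 (quasi-likelihood test, robust, Benjamini-Hochberg over all tested genes), and with DESeq2 1.42.0. At 25351976 to 29111213 counts per library, 3 counts are 0.0934 to 0.122 TMM-scaled CPM. Log2 CPM used a prior count of 1. Selenocysteine codons were counted as in-frame TGA in GENCODE M21 coding sequences, since no protein table was given, a change chosen after seeing the data. Named genes were all 10 members, listed genes past the DEG thresholds, Selenow, Lrp8, Sars1, the 3 most abundant selenoproteins, and the 5 genes most like Selenop and the member with the lowest p. Alternatives were another tool, size factor or filter, no robust estimation, a replicate block, no mitochondrial genes and each library left out.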

Additional observations from a re-analysis of the deposited data

How the results depend on the processing

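None of the 10 genes passed the DEG thresholds or an adjusted p under 0.05 under any of the 14 alternatives. Across the fits 666 to 1792 of all genes passed the thresholds. In the main edgeR fit no tested gene had an adjusted p under 0.05. Of 140 log2 differences of the members under these alternatives, 124 kept their sign and 16 changed it. With the replicate block the median of the members was 0.020 and 890 genes in all passed the thresholds, against 836. The replicate numbers share no stated litter or batch. Deviations from the group mean correlated across genes at 0.060, 0.044 and -0.074 between WT and KO libraries of the same number, and not every library correlated best with its own number, so the block was not used otherwise.

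With no filter on low counts, 1780 genes in all passed, as did 1 selenoprotein gene (Dio2), and Selenop was at -0.0075. Relative to library totals, an alternative chosen after seeing the data, 1792 genes in all, 3 other pathway genes and 1 selenoprotein gene (Selenos) passed. On that scale the median of the members was -0.24, with Selenop at -0.26, Sephs1 at -0.15, Pstk at -0.17, Sepsecs at -0.22 and Eefsec at -0.021, next to a shift of -0.25 in the median of all tested genes. The selenocysteine codon sum differed by -0.13 on TMM-scaled CPM per kilobase, and by -0.041 there without Selenow, both chosen after seeing the data.

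Leaving out each library in turn, other pathway genes past the thresholds numbered 0 to 2 and selenoprotein genes 0 to 1. In the same fits 814 to 1072 of all genes passed. The median of the members ran from 0.0076 to 0.092, highest without WT replicate 3. Log2 differences ran from -0.076 to 0.12 for Selenop, -0.20 to 0.016 for Scly, -0.22 to 0.026 for Sephs2, -0.045 to 0.17 for Sepsecs and -0.19 to 0.10 for Trnau1ap. With no change of sign they ran from 0.039 to 0.35 for Eefsec, -0.30 to -0.019 for Secisbp2, 0.033 to 0.18 for Sephs1, 0.026 to 0.11 for Pstk and 0.20 to 0.35 for Secisbp2l. The cause of these changes was not tested. With 34 to 51 counts per library, Eefsec had the widest interval of the 10 genes.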
